A study of Mus musculus with 6 samples.

Results

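Contactins are immunoglobulin-like adhesion proteins held in the outer cell membrane by a lipid anchor, and the contactin-associated proteins, also called Casprs, are transmembrane partners that share the neurexin fold. On myelinated axons, Cntn1 and Cntnap1 form the junction between axon and myelin beside the node of Ranvier, and Cntn2 and Cntnap2 hold shaker-type potassium channels in the next stretch of membrane. Neurons are the best known source of the family, Cntn2 is also made by myelinating glia, and microglia are not among the cells the family is known for. The 9 genes Cntn1, Cntn2, Cntn3, Cntn4, Cntn5, Cntn6, Cntnap1, Cntnap2 and Cntnap4 were taken by symbol from 26789 genes, and the family was selected on measured values, since it was chosen by the level of Cntn2, higher in each low-sodium library than in each control library. 8 of the 9 had a row of values, and Cntn3 was not analysed here. All 8 reached the minimum set for testing, a mean of 10 normalized counts, and each also had a mean above 10 in either diet group taken alone.

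RNA was sequenced from microglia of P15 mice in 6 libraries. The 3 control libraries came from offspring of dams on control diet, and the 3 E3–E12 diet libraries from offspring of dams fed a sodium-restricted diet from E3 to E12 of gestation and standard chow afterwards. By the study's methods, each library pooled the rostral nucleus of the solitary tract (NST), the first taste relay of the brainstem, from 6 littermates, and the cells were pulled down with magnetic beads against CD11b, whereas the labels name laser microdissection. Males and females were used, the study's terminal field measurements name C57Bl/6 as the control strain, and no transgene or agent other than the diet is named for these samples. By the same methods, 1 library stands for 1 litter.

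The libraries summed to between 9407141 and 17204618 normalized counts, and the number of reads behind a value is not known. All 10 microglia markers examined, among them Csf1r and Cx3cr1, were above 0 in every library, and their summed level ran from 93460 to 485845 normalized counts in controls and from 94204 to 298441 in E3–E12 diet mice. Markers of other cells were present too. The 12 neuron markers summed to between 1484 and 3971 in controls and between 1574 and 4232 in E3–E12 diet mice, and the 10 oligodendrocyte markers, among them Mbp and Mobp, to between 5207 and 44622.5 and between 6122 and 24796. Their part in the contactin values was not tested, and in pooled cells more cells of a type cannot be told apart from more RNA per cell. Control replicate 2 stood apart, with 10640 genes listed at 0 against 3459 to 7135 in the other libraries. Because 4 of 76 ribosomal protein genes and 1 of 37 proteasome genes were also listed at 0 there, a 0 is reported as listed at 0 and not as absence.

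Library values are given in the order of replicates 1, 2 and 3. Cntn2, which encodes the contactin of the juxtaparanode and of early growing axons, was the gene that chose the family. It had 20.9, 12 and 42.9 normalized counts in controls against 202.1, 334.7 and 114.6 after the E3–E12 diet. The lowest E3–E12 diet library was 2.67 times the highest control, so the groups did not overlap. The means were 217.1 ± 110.8 against 25.3 ± 15.9 normalized counts (SD, n = 3 libraries each), a ratio of 8.60, and the difference was 3.10 with a standard error (SE) of 0.73 on the log2(normalized count + 1) scale. As the gene was picked for this difference, the values are a description and carry no test. Groups without overlap in this direction were seen in 2.99% of the 18007 genes tested. Within a library, Cntn2 lay at the 41.7th, 50.7th and 53.4th percentile of all listed genes in the control libraries and at the 71.4th, 79.9th and 66.7th in those of E3–E12 diet mice. Genes listed at 0 are counted in these percentiles, from 4288 to 10640 in control libraries and from 3459 to 7135 in E3–E12 diet libraries. The percentiles are therefore not directly comparable between libraries. On this scale Cntn2 was never one of the abundant transcripts. With any single library left out, its difference was between 2.68 and 3.56, where the sign is fixed by the way the gene was chosen.

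**Figure D1:**
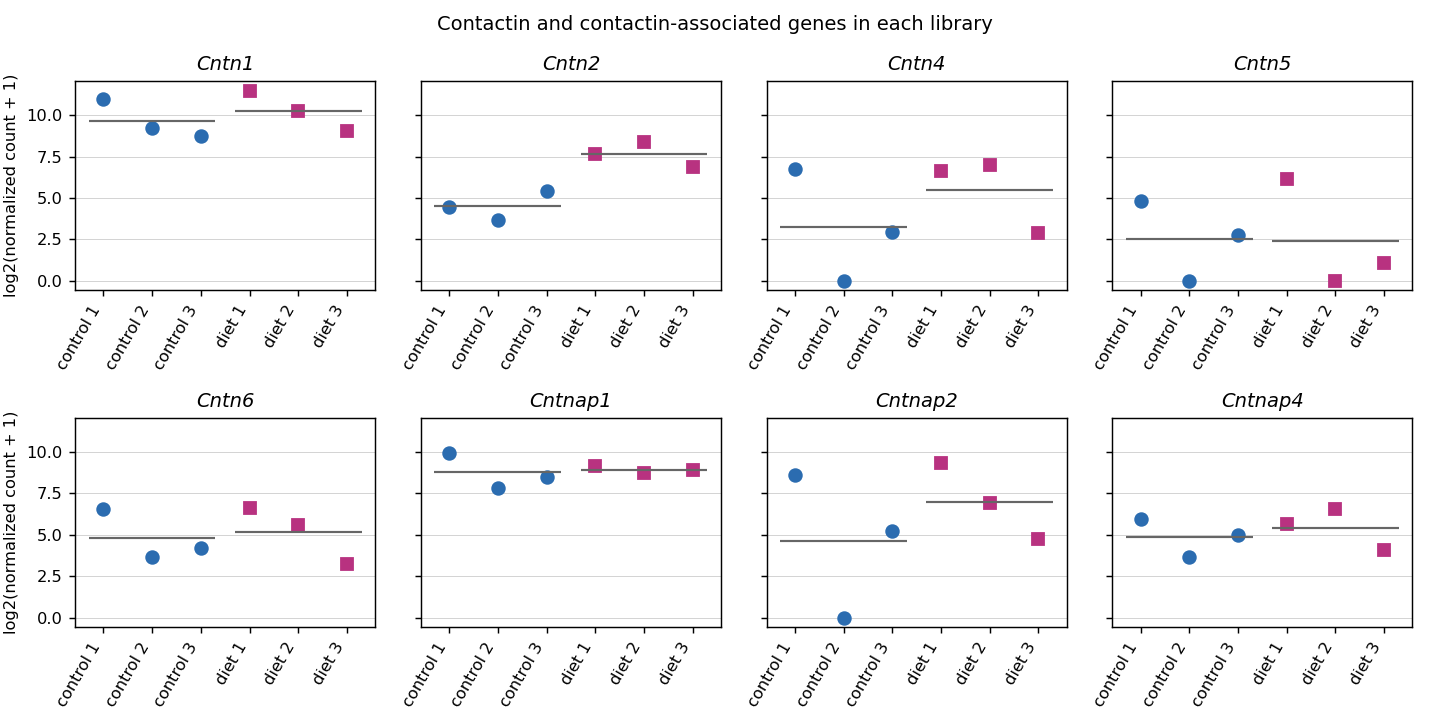
Level of each contactin and contactin-associated gene in the 6 libraries, as log2(normalized count + 1) on the vertical axis. Circles are control libraries, squares are E3–E12 diet libraries and grey lines are group means of 3 libraries. Only in the Cntn2 panel do all squares lie above all circles, and Cntn4, Cntn5 and Cntnap2 are at 0 in control replicate 2.

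The partner of Cntn2 at the juxtaparanode did not separate the diets. Cntnap2, which encodes Caspr2, had 391.7, 0 and 36.5 normalized counts in controls against 655.1, 119.0 and 25.6 after the E3–E12 diet. Its highest values were in replicate 1 of either diet, and the groups overlapped. The log2 fold change was 2.38 (SE 2.26), with an adjusted p of 0.999 (limma with Benjamini-Hochberg adjustment over all genes), and it was 0.076 once control replicate 2, listed at 0, was left out.

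The pair of the paranode, Cntn1 and Cntnap1, held the highest levels of the family. Cntn1 had 2037, 608.5 and 432.1 normalized counts in controls against 2898, 1250 and 521.5 after the E3–E12 diet, means of 1026 ± 880 against 1556 ± 1218 (SD, n = 3 libraries each). In both groups the highest litter had several times the level of the lowest, and the log2 fold change was 0.61 (SE 0.92). Cntnap1, which encodes Caspr, had 992.8, 226.0 and 365.3 normalized counts in controls against 575.7, 428.6 and 480.3 after the E3–E12 diet. Here the 3 E3–E12 diet libraries lay inside the range of the controls, and the log2 fold change was 0.18 (SE 0.71). The adjusted p from limma was 0.999 for either gene. The sign for Cntn1 turned without E3–E12 diet replicate 1 (log2 fold change -0.0089), and that for Cntnap1 without control replicate 2 (-0.29).

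Cntn4, Cntn5 and Cntn6, which like Cntn3 bind the receptor phosphatase Ptprg, were low and uneven. Cntn4 had 105.5, 0 and 6.67 normalized counts in controls against 97.1, 126.0 and 6.33 after the E3–E12 diet. Replicate 3 of either diet was near 6, and replicate 1 near 100, so that the log2 fold change of 2.27 (SE 1.90) rested largely on the 0 in control replicate 2 and was 0.66 without it. Cntn5, known from subcortical sensory circuits, was the lowest member, with 27.6, 0 and 5.89 normalized counts in controls against 69.6, 0 and 1.09 after the E3–E12 diet. It was listed at 0 in replicate 2 of both diets, and its log2 fold change was -0.14 (SE 1.90). Cntn6, a contactin known from the cerebellum, had 93.3, 11.7 and 17.3 normalized counts in controls against 99.4, 47.6 and 8.34 after the E3–E12 diet, a log2 fold change of 0.35 (SE 1.17). Cntnap4, a Caspr of inhibitory neurons, had 61.1, 11.6 and 30.4 normalized counts in controls against 49.3, 93.8 and 15.7 after the E3–E12 diet. Its log2 fold change was 0.56 (SE 0.92), and -0.037 without control replicate 2. None of these 4 genes passed the adjusted threshold of 0.1, the adjusted p in limma being 0.999 for each.

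Taken by count, 6 of the 7 members other than Cntn2 had a higher mean log2 level in E3–E12 diet mice, where 54.4% of all genes tested did, and 0 of them passed either an adjusted p of 0.1, as 0% of all genes did in limma, or an unadjusted p of 0.05, where 1.82% of all genes did (0.95% upwards and 0.866% downwards after the E3–E12 diet). None of the 7 had groups without overlap, a pattern seen in 5.90% of all genes in either direction. Their median log2 fold change was 0.56, beside 0.087 over all genes, and it was -0.037 beside -0.0042 without control replicate 2, which thus set the sign of the median. The 95% intervals of the 7 differences were wide, the narrowest running from -1.53 to 1.88 (Cntnap1) and the widest from -3.03 to 7.80 (Cntnap2). A change as large as that of Cntn2 was inside the interval of Cntn4, Cntn5, Cntn6 and Cntnap2 and outside that of Cntn1, Cntnap1 and Cntnap4. That size is only a yardstick, since Cntn2 was picked for its difference. The intervals of Cntn6, Cntn1 and Cntnap4 ended close to it, at 3.14, 2.81 and 2.77.

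**Figure D2:**
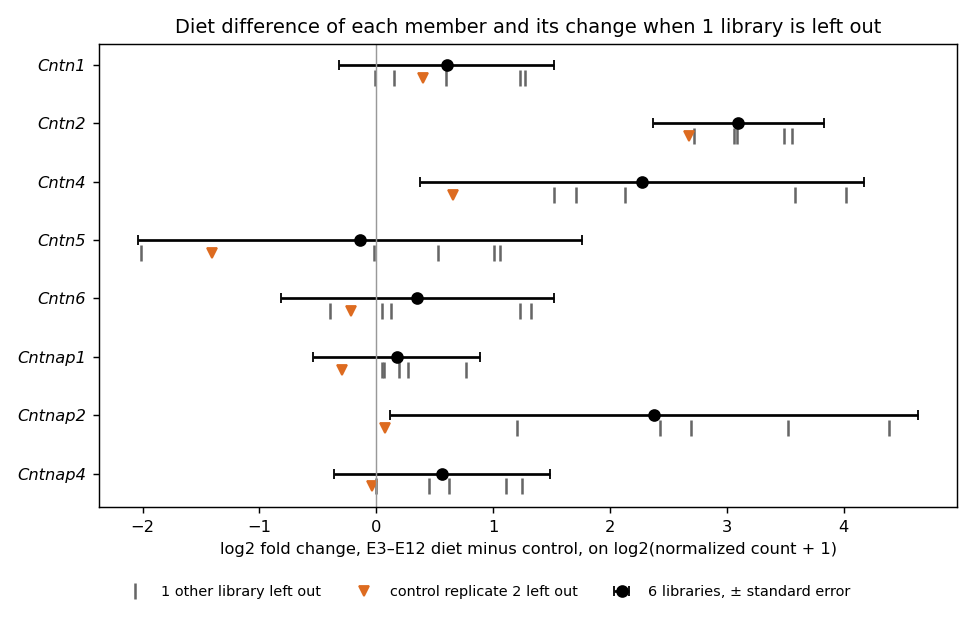
Difference between diets for each member, as the log2 fold change of E3–E12 diet over control on the horizontal axis. Black points are the values from 6 libraries with their standard error, grey ticks those with 1 library left out and orange triangles those without control replicate 2. Cntn4 and Cntnap2 fall from 2.27 and 2.38 to 0.66 and 0.076 without control replicate 2, and the sign of Cntn2 is fixed by the choice of the gene.

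The other members were high and low in much the same libraries. Control replicate 1 was among the 2 highest libraries for all 7 of them and E3–E12 diet replicate 1 for 5, while control replicate 2 was the lowest or tied lowest for 5, as it was for 40.1% of all genes tested. Over the 6 libraries, the log2 levels of these 7 genes had a Pearson r of 0.76 to 0.95 with the mean log2 level of the neuron markers and of -0.94 to -0.72 with that of the microglia markers. The r was 0.61 to 0.965 with the astrocyte markers and 0.50 to 0.95 with the oligodendrocyte precursor markers. With the oligodendrocyte and endothelial markers it was 0.22 to 0.74 and 0.30 to 0.83. The likeness was thus not particular to the neuron markers. The r among the 21 pairs of these genes ran from 0.37 to 0.94 with a median of 0.77. Cntn2 had an r of 0.33 with the neuron markers, -0.21 with the microglia markers and 0.036 to 0.60 with the other members. These correlations are descriptions over 6 libraries that were scaled together, and no test was made of them.

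Markers of myelinating glia, which are known to make Cntn2, and of other cells are given beside it. Of the 10 oligodendrocyte markers, 4 had a higher and 6 a lower mean log2 level in E3–E12 diet mice, with a median log2 fold change of -0.25 and an r of -0.11 with Cntn2. Mbp, a main protein of myelin, had 12237, 8127 and 2315 normalized counts in controls against 4695, 7276 and 2950 after the E3–E12 diet, and Ermn, a cytoskeletal protein of myelinating cells, had the highest log2 fold change of the list, 1.11 (SE 0.835). A higher mean log2 level in E3–E12 diet mice was seen for all 6 oligodendrocyte precursor markers and for 54.4% of all genes tested. The precursor markers had a median log2 fold change of 0.40 (0.15 without control replicate 2) and an r of 0.33 with Cntn2. Without that library Olig2 was at -0.15, and the other precursor markers stayed higher. All 8 astrocyte markers were also higher on average, with a median of 1.46 (0.75 without control replicate 2) and an r of 0.68. Without that library Gfap and Slc1a2 were at -1.21 and -0.65, and the other astrocyte markers stayed higher. In control replicate 2, 3 of these markers were listed at 0. Aldoc, 1 of the 8, had groups without overlap and was higher after the E3–E12 diet, as 2.99% of all genes were. The 7 endothelial markers had a median log2 fold change of 1.38 (-0.037 without control replicate 2) and an r of 0.56 with Cntn2. In limma, 0 of the markers of these 4 cell types had an unadjusted p under 0.05, against 1.82% of all genes. The part of these cells in the Cntn2 values was not tested.

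The level of Cntn2 was also set against the mean log2 level of each marker list in its own library, as a description of the values that chose the gene. Its diet groups overlapped against 3 of the 6 lists. Against the astrocyte markers it was at -3.56, -0.32 and -1.78 in the control libraries and at -1.25, 0.49 and -0.48 in E3–E12 diet libraries. Control replicate 2 thus lay above 2 of the E3–E12 diet libraries, and the difference of the means was 1.47 in place of 3.10. In that library the mean log2 level of the astrocyte markers was 4.02, against 7.24 to 8.92 in the others. Control replicates 1 and 3 lay below every E3–E12 diet library. Against the endothelial and the oligodendrocyte precursor markers the difference was 1.96 and 2.52, with 1 control above 1 E3–E12 diet library in each. That control was replicate 2 for the endothelial markers, whose mean log2 level was 7.15 there and 10.4 to 11 in the other libraries. For the precursor markers it was replicate 3. Against the oligodendrocyte, neuron and microglia markers the difference was 3.45, 2.61 and 3.3, and the groups did not overlap, each time by a narrow margin. The highest control and the lowest E3–E12 diet library were at -1.35 and -1.04 for the oligodendrocyte markers. They were near 0 and at 0.21 for the neuron markers, and at -7.25 and -6.86 for the microglia markers.

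**Figure D3:**
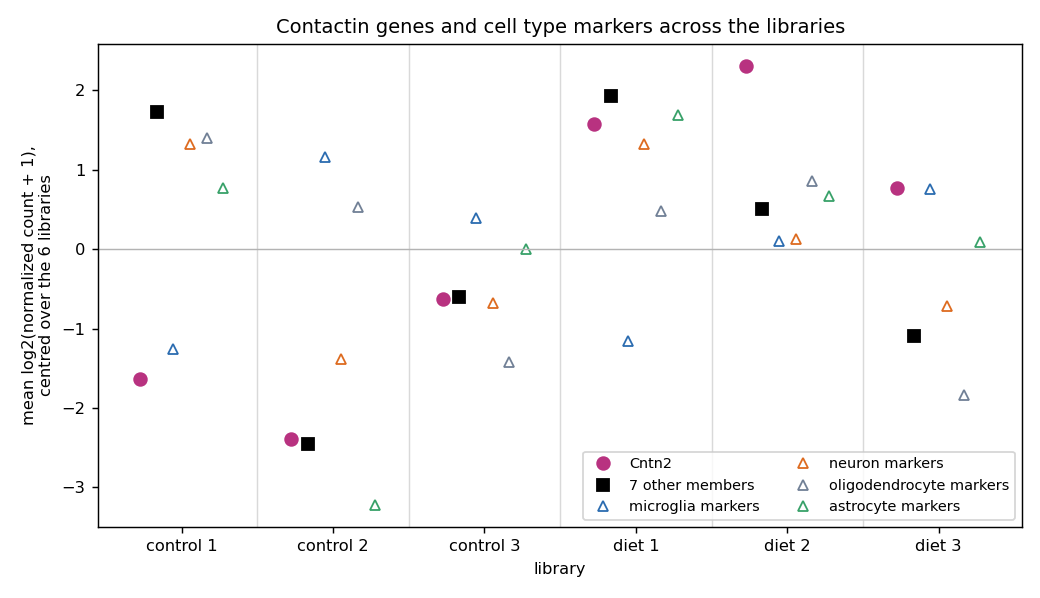
Mean log2(normalized count + 1) of Cntn2, of the 7 other members and of 4 lists of cell type markers in each library, centred on the mean over the 6 libraries (vertical axis, log2 units). The 7 other members, the neuron markers and the astrocyte markers are high in replicate 1 of either diet and low in control replicate 2, while Cntn2 is at -1.63 in control replicate 1 and at 1.58 in E3–E12 diet replicate 1.

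To compare genes with one another, the levels were divided by the length of the merged exons of each gene, from 4.53 kb in Cntn5 to 10.2 kb in Cntnap2. On this scale of normalized counts per kb, the mean over the 6 libraries fell in the order Cntn1 (137), Cntnap1 (87.1), Cntnap2 (20.0), Cntn2 (13.0), Cntn6 (7.12), Cntnap4 (6.95), Cntn4 (6.71) and Cntn5 (3.83). Only the step from Cntnap1 to Cntnap2 held in all 6 libraries, with a mean log2 ratio of 3.85 ± 2.79 (SD, n = 6 libraries). In control replicate 2 Cntnap2 was listed at 0, so the ratio there rests on the pseudocount of 1 and raises both mean and SD. Cntn1 exceeded Cntnap1 in 4 of 6 libraries, and each of the other neighbouring pairs kept its order in between 2 and 4 libraries, so those neighbours did not differ beyond their spread. Cntn2 ranked 8th, 5th and 4th of the 8 genes in the control libraries and 4th, 3rd and 3rd in those of E3–E12 diet mice. In control replicate 2 the genes ranked below it, Cntn4, Cntn5 and Cntnap2, were all listed at 0. These ranks restate the values that chose the gene.

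The members differ widely in gene size and position, in the GRCm38 annotation of GENCODE M21. Cntn2 lies on the minus strand of chromosome 1 between 132509427 and 132543256 and spans 33.8 kb, and Cntnap1 spans 20.2 kb of chromosome 11 (101170523 to 101190724, plus strand). The other 6 members measured span from 290803 bases (Cntn1, chromosome 15) to 2244857 bases (Cntnap2, chromosome 6, 45059357 to 47304213, plus strand). Cntn6 and Cntn4 are neighbours in the same orientation on chromosome 6, at 104492790 to 104863406 and 105677660 to 106699310. The 3 genes listed at 0 in control replicate 2, Cntn4, Cntn5 and Cntnap2, are the 3 with the longest spans (1021651, 1243885 and 2244857 bases), and 16.2% of all genes tested were listed at 0 there and 19.9% in at least 1 library. Sequence shared with other genes was limited. The share of 50-base windows of the longest transcript that also occurs in another gene's transcript was 1.03% for Cntn2, 3.72% for Cntn5, 9.52% for Cntnap4 and under 1% for the other members measured. The windows of Cntn5 and Cntnap4 were shared with the antisense genes Gm32710 and Gm45904, and Cntnap1 overlaps exons of Plekhh3 on the other strand. As it is not stated whether strand was used in counting, those 3 genes are uncertain to that extent.

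The 5 genes most like Cntn2 over the 6 libraries, by Pearson r of log2(normalized count + 1) among the 18007 tested, were Gyg (0.985), L3mbtl2 (0.984), Esyt1 (0.980), D10Jhu81e (0.980) and Mthfd2 (0.974). None of them belongs to the contactin partners. Genes picked for their likeness to Cntn2 share its diet difference by that choice, so their values are a description and carry no test. L3mbtl2, a Polycomb-group chromatin protein, had 108.7, 76.4 and 126.4 normalized counts in controls against 477.8, 480.7 and 306.9 after the E3–E12 diet, a smaller ratio than that of Cntn2 in the same direction. Mthfd2, a mitochondrial enzyme of folate metabolism, had 44.4, 29.3 and 73.0 in controls against 138.4, 141.4 and 119.2 after the E3–E12 diet. Among the other 18006 genes tested, 21 (0.117%) had an r of at least 0.95.

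Related genes were measured as 38 genes in 4 lists, 3 lists of binding partners, channels and scaffolds and 1 of the 3 Casprs tested outside the 9 genes. 0 of the 38 passed an adjusted p of 0.1 and 0 had an unadjusted p under 0.05 in limma, against 0% and 1.82% of all genes. 27 had a higher and 11 a lower mean log2 level in E3–E12 diet mice, beside 54.4% higher over all genes tested. Their median log2 fold change of 0.21 (0.087 over all genes) became -0.40 without control replicate 2 (-0.0042 over all genes). 1 of the 38 had groups without overlap, in the direction of lower levels, as 2.91% of all genes did.

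That gene was Notch1, a receptor to which Cntn1 and Cntn6 can bind on glia. Notch1 had 3959, 3287 and 3817 normalized counts in controls against 1946, 2594 and 1380 after the E3–E12 diet. All 3 controls lay above all 3 E3–E12 diet libraries, with a log2 fold change of -0.94 (SE 0.56; exact permutation p = 0.1, two-sided, the smallest that 3 libraries against 3 allow, and adjusted p = 0.999 from limma). The value ranged from -1.16 to -0.71 with each library left out in turn. Because Notch1 is named here for groups without overlap, that permutation p and the sign with a library left out were fixed beforehand. The study's own DESeq2 analysis listed Notch1 among its downregulated genes, just under its adjusted threshold of 0.1. It also listed Cntn2, L3mbtl2 and Aldoc among its upregulated genes. Those listings come from the same libraries and are not independent of the values given here. Of the other 11 surface and matrix partners tested, 9 had a higher and 2 a lower mean log2 level. Nfasc, the neurofascin of node and paranode, had 11593, 2281 and 649 normalized counts in controls against 5014, 8670 and 952 after the E3–E12 diet. Nrcam, its relative at the node, had 191.8, 0 and 35.7 in controls against 88.4, 170.2 and 12.8 after the E3–E12 diet, and Ptprz1, a receptor of Cntn1 on glia, had 2305, 704.5 and 342.8 against 3727, 1381.5 and 421.5. All 3 overlapped between diets, and Ptprz1 was highest, like Cntn1, in replicate 1 of either diet. Ptprg, the receptor of Cntn3 to Cntn6, had a log2 fold change of 0.52 (SE 1.26) that became -0.89 without control replicate 2. App, a ligand of Cntn4, was more even, at 1597, 1091.5 and 2249 normalized counts in controls against 1560, 1085 and 1697 after the E3–E12 diet (log2 fold change -0.15, SE 0.585). Tnc, a matrix protein that binds Cntn1, had a log2 fold change of 1.37 that became -0.38 without control replicate 2. Mag, a myelin protein that is also 1 of the oligodendrocyte markers, stood at 7.77, 431.8 and 0 normalized counts in controls and was listed at 0 in all 3 E3–E12 diet libraries.

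None of the channels that the family gathers on the axon had diet groups without overlap, a pattern seen in only 5.90% of all genes tested. Of 9 tested, 6 had a higher and 3 a lower mean log2 level in E3–E12 diet mice, with a median log2 fold change of 0.088. Kcna1, a shaker-type potassium channel subunit of the juxtaparanode, had 132.3, 7.96 and 45.7 normalized counts in controls against 47.7, 74.1 and 7.58 after the E3–E12 diet. Kcna2, its partner subunit, had 918.2, 85.9 and 210.2 in controls against 1094, 312.2 and 63.5 after the E3–E12 diet. Both overlapped between diets, with log2 fold changes of -0.28 (SE 1.26) and 0.13 (SE 1.30). The auxiliary subunits Kcnab2 and Kcnab1 had the highest and the lowest values of the list, 1.67 (SE 1.19) and -1.38 (SE 1.22), and the sodium channels Scn2a and Scn1a followed at 0.67 and -1.11.

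Among 14 scaffold and anchor genes, 10 had a higher and 4 a lower mean log2 level, with a median log2 fold change of 0.54 that became -0.15 without control replicate 2. Epb41l3, the protein that ties the Casprs to the membrane skeleton, had 743.6, 937.0 and 123.0 normalized counts in controls against 196.3, 208.9 and 170.7 after the E3–E12 diet. 2 controls lay above all E3–E12 diet libraries and 1 below them, a log2 fold change of -1.20 (SE 0.88). Lgi1, a secreted ligand of the axonal receptor Adam22, had the lowest value at -1.53 (SE 1.30), and Adam22 itself one of 1.18 (SE 1.32). Sptbn4, the spectrin of the node, had the highest, 1.34, and -0.80 without control replicate 2, where it was listed at 0. The Casprs outside the 9 genes were measured as well. Cntnap5a had 505.5, 393.4 and 318.0 normalized counts in controls against 320.3, 246.0 and 314.4 after the E3–E12 diet (log2 fold change -0.45, SE 0.54), Cntnap5b and Cntnap5c were each listed at 0 in 2 libraries (log2 fold changes 0.16 and 0.60, SE 2.13 and 2.14), and Cntnap3 was under the filter.

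**Figure D4:**
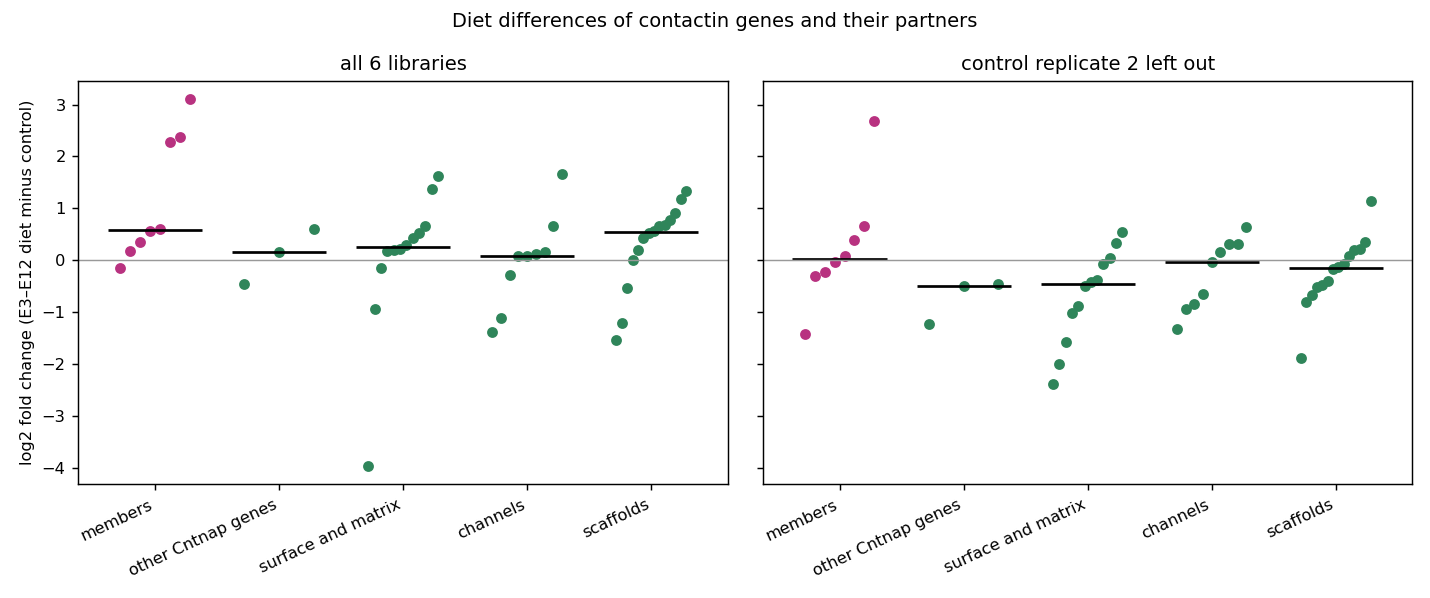
Log2 fold changes of E3–E12 diet over control (vertical axis) for the 8 members and the 38 related genes in 4 lists (partners and Casprs outside the 9 genes), with 1 point per gene and black lines at the medians. The left panel uses all 6 libraries and the right panel leaves out control replicate 2, where the median of the members falls from 0.59 to 0.020.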

How the data were processed

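The authors deposited 1 table of normalized counts per gene for 6 libraries, a signal with no raw counts. Per the labels and the submitters' processing notes, FastQC, STAR, featureCounts, DESeq2 and GRCm38 were used; the annotation is not given in the sources used here. The name of the deposited table points to a surrogate variable adjustment, which no source used here describes; if one was made with diet in its model, the separation of the groups could be larger than in unadjusted counts. The deposited normalized counts had no common step per read among the 200 lowest values of a library, so reads were not recovered and depth is unknown. Columns were matched to samples by title, and 26507 identifiers to symbols.

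Diets were compared on log2(normalized count + 1) by limma 3.58.1 in R 4.3.3, two-sided, over 18007 genes with a mean of at least 10, with Benjamini-Hochberg adjustment and the threshold of 0.1 of the study's methods. The fit was tested on simulated data. The members, lists and tests were chosen with earlier results of these data known. Genes named are the members, the 2 highest and 2 lowest fold changes of each partner list, 8 well-known partners, the 5 genes most like Cntn2 and leading markers; Aldoc was added after its values were seen. As litters are the replicates, p-values measure the spread between 3 litters a group.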

Additional observations from a re-analysis of the deposited data

How the results depend on the processing

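The direction of Cntn2 is fixed by its choice and says nothing of stability; over 14 alternatives its log2 fold change was between 2.66 and 3.13 under other pseudocounts, filters, scalings, a variance trend or the replicate block and between 2.68 and 3.56 with 1 library left out. Leaving out 1 library at a time gave -0.0089 to 1.27 for Cntn1, 0.66 to 4.02 for Cntn4, -2.01 to 1.06 for Cntn5, -0.39 to 1.32 for Cntn6, -0.29 to 0.77 for Cntnap1, 0.076 to 4.39 for Cntnap2 and -0.037 to 1.25 for Cntnap4, so that the sign turned for Cntn1, Cntn5, Cntn6, Cntnap1 and Cntnap4. The sign also turned for Cntn5 with a pseudocount of 10 (0.19) and for Cntn6 after quantile normalization (-0.094), and the cause was not tested. Neither the 7 other members nor the genes of the 4 related lists passed the adjusted threshold of 0.1 in limma under any alternative, and the count over all genes was 0 except with a filter of 50 normalized counts, which tested 12973 genes and called 1, Prdm4 (log2 fold change -6.86, SE 0.54, adjusted p = 0.0597 in limma). Cntn5, Cntn6 and Cntnap4 fell under that filter and have no value there. Deviations from the diet mean correlated at 0.26, 0.035 and 0.14 between libraries with equal numbers and at -0.25 to 0.087 between those with unequal numbers. The labels do not say that a number is shared, so it was not treated as a pair in the main fit, and a shared structure is not excluded. With the replicate block in limma, 0 genes passed and 468 had an unadjusted p under 0.05, against 327 without it. The block changed no call of these genes. Levels set against marker lists were added after seeing the data. With 3 libraries a group, and standard errors of about 0.71 to 2.26 for the members, only large differences could be told from the spread.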
